A study of Mus musculus with 6 samples.

Results

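Inner root sheath keratins Krt25, Krt27, Krt28, Krt71, Krt72 and Krt73 and hair shaft keratins Krt33a, Krt33b and Krt35 were followed in epidermis from Rictor -/- and control mice. They were taken by gene name from the deposited expression table. Of the 10 keratins listed for the group, 9 were matched to a row, 6 of the sheath and 3 of the shaft, among 49386 gene rows with one row per symbol. The table gives FPKM, fragments per kilobase of transcript and scaled to the mapped fragments of the library. Total RNA was taken from the separated epidermis of C57BL/6 embryos at E19.5. Rictor is a subunit that mTOR complex 2 needs, and the study compared mRNA levels of Rictor-deficient with those of control epidermis. The Rictor -/- group holds libraries 263, 265 and 266, titled ricEKO, and the control group holds libraries 261, 262 and 264. The labels name neither the Cre line nor the alleles of the controls, and do not tie each library to its own animal; p-values below thus measure spread among these libraries, which may be partly technical.

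Summed FPKM ran from 609369 to 622013 in the Rictor -/- libraries and from 623482 to 672912 in the controls. Relative depth was judged by the most frequent ratio between control 261 and each library, among genes under 0.3 FPKM in all libraries. The deepest libraries, 266 and control 262, came to 1.2 times the depth of control 261, the shallowest. Rictor itself stood at 6.83, 7.04 and 6.86 FPKM in the Rictor -/- libraries, against 5.63, 6.02 and 4.37 FPKM in the controls. The targeted gene was therefore not lower in the libraries labelled Rictor -/-, and a value over the whole gene also counts exons that a deletion leaves in place. Every direction below rests on the labels. The keratinocyte markers Krt5, Krt14, Krt1 and Krt10 were abundant in all 6 libraries, summing with Trp63 to 31379 to 33742 FPKM in Rictor -/- epidermis and 28773 to 30153 FPKM in control epidermis.

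Keratins form filaments from pairs of a type I (acidic) and a type II (basic) protein. The inner root sheath surrounds and moulds the growing hair, and its filaments pair the type I keratins Krt25, Krt27 and Krt28 with the type II keratins Krt71, Krt72 and Krt73. The shaft is built of hard keratins, among them type I Krt33a, Krt33b and Krt35, embedded in keratin-associated proteins. In human follicles Krt35 appears early in the matrix and lower shaft, Krt33a and Krt33b later in the cortex, and Krt72 and Krt73 in the cuticle of the sheath. Dominant mutations of Krt71 and of Krt25 give mice a wavy coat. At E19.5 mouse skin carries follicles of several stages, only the oldest of which make sheath and shaft.

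RefSeq promoter windows on GRCm38.p6, from 250 bases before to 50 bases after the annotated start, matched 7 of the 9 genes. Windows of 4 sheath keratins and of the shaft keratin Krt33b are shown. They are the 3 type II sheath genes, which lie close together, with Krt25 and Krt33b as type I sheath and shaft examples. All lie on the minus strand and read 5′ to 3′, with Krt71 at chr15:101743048-101743347, Krt73 at chr15:101802311-101802610, Krt72 at chr15:101786471-101786770, Krt25 at chr11:99322902-99323201 and Krt33b at chr11:100029819-100030118. Capitals mark TATAAA, the TATA box, AGATAA, a core bound by GATA factors, and TAATTA, a core bound by homeodomain factors, where they occur in the direction of transcription.
Krt71: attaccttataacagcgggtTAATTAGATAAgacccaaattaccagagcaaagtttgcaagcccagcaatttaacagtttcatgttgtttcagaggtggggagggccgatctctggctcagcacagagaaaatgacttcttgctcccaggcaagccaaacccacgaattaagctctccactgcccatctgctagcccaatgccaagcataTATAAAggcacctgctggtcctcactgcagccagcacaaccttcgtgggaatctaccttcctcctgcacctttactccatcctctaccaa
Krt73: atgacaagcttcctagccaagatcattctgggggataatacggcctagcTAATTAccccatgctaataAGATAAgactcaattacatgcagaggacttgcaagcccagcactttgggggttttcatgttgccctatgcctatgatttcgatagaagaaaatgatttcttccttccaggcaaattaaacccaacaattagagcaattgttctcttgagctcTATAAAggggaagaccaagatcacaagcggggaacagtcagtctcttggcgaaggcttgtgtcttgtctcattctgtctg
Krt72: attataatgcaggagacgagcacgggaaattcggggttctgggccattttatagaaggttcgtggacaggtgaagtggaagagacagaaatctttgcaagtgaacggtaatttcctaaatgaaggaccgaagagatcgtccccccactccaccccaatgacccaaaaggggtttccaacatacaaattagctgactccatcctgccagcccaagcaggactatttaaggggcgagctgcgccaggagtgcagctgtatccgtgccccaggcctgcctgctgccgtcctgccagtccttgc
Krt25: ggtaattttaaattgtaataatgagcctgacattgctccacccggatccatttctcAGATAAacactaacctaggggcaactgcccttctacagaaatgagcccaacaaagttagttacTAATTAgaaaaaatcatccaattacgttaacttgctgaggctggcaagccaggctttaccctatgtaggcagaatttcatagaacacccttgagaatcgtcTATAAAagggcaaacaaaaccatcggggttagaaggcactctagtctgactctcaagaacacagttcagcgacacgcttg
Krt33b: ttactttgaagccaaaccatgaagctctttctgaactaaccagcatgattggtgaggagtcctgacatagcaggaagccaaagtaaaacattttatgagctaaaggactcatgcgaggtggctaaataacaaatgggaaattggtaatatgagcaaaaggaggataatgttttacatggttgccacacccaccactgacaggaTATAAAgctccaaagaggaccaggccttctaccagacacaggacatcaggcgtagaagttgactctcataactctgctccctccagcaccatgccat

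On either strand TATAAA occurred in 7 of the 7 windows, against 13.6% of 32851 RefSeq promoter windows, which leave out 1 chromosome. In Krt72 its only match lay on the opposite strand, 203 bases before the start, whereas Krt25, Krt28 and Krt73 carried it 30 bases before the start. AGATAA was present in 4 of 7 windows (Krt25, Krt27, Krt71 and Krt73), against 11.2% of the 32851 windows. Among the 7 only Krt33b is a shaft keratin, so sheath and shaft cannot be compared. The core TAATTA was in 4 of 7 (Krt25, Krt28, Krt71 and Krt73), against 5.29%. In Krt71 it overlaps AGATAA by 1 base. The LEF1 and TCF core CTTTGA was in 2 of 7 (Krt28 and Krt33b), against 16% of the 32851 windows, and the AP-1 site TGANTCA in 0 of 7, against 7.81%. The paralogs Krt71 and Krt73, with Krt72 between them on the chromosome, also share a run of 14 bases, ttgcaagcccagca, that begins 196 bases before the start of Krt71 and 154 bases before that of Krt73. The motifs were chosen after the windows had been seen, and a match is a description of letters, not of binding.

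All 9 keratins were lower in the epidermis labelled Rictor -/-, by 37.4% (Krt73) to 58.9% (Krt33b) in mean FPKM. Together they summed to 1185, 1044 and 1024 FPKM in the Rictor -/- libraries, against 2168, 1715 and 2130 FPKM in the controls. The sums of the groups did not overlap. The sheath keratins held most of this RNA, averaging 962.3 ± 79.6 FPKM in Rictor -/- and 1759 ± 219 FPKM in control epidermis, and the 3 shaft keratins averaged 122 ± 9.09 FPKM in Rictor -/- and 244.9 ± 33.7 FPKM in control epidermis (SD, n = 3 each). Each of the 9 passed limma's test across 13500 genes (Benjamini-Hochberg adjusted p of 0.0025 to 0.00746), with the same direction in every library pair. Over all tested genes 15.6% were called lower, 7.91% were called higher and 29.2% had every Rictor -/- value below every control value. Higher genes were 33.7% of these calls, against 44.5% with median, 50.1% with trimmed mean and 47.9% with quantile scaling. The median difference in log2(FPKM + 1), Rictor -/- minus control, was -0.95 over the 9 keratins and -0.06 over all tested genes. A drop at least as large as that of Krt73, the smallest of the 9, was found in 4.8% of tested genes. All 9 means exceeded 1 FPKM, the filter on low values, in both groups, so none entered through one group alone. In whole epidermis fewer sheath or shaft cells and less RNA per cell cannot be told apart.

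**Figure D1:**
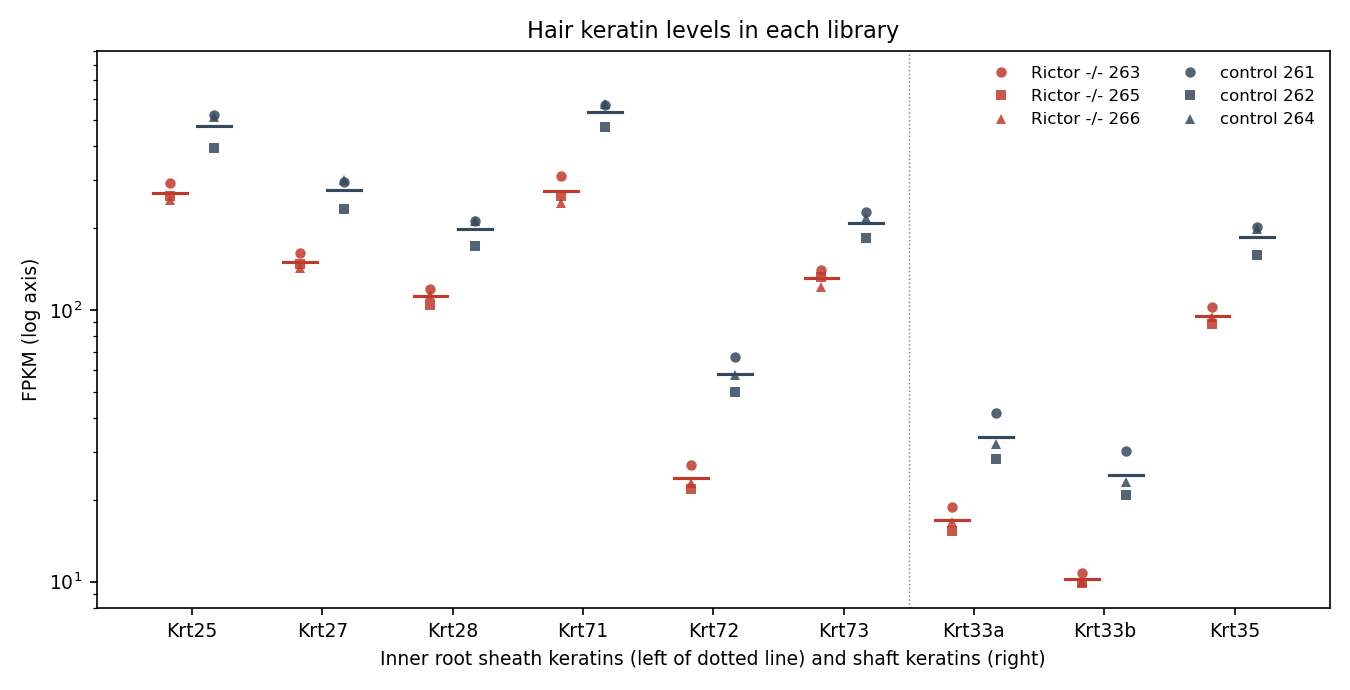
FPKM of each keratin in every library on a log axis, with Rictor -/- libraries in red left of controls in dark blue; horizontal lines are group means (n = 3). For every keratin the 3 Rictor -/- points lie below the 3 control points, and control 262 is the lowest control.

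Among the type II sheath keratins, Krt71 (ENSMUSG00000051879, chromosome 15, 101733949 to 101743109, GRCm38), which is made in all layers of the sheath, stood at 310.9, 262.1 and 248.2 FPKM in Rictor -/- libraries 263, 265 and 266. In controls 261, 262 and 264 it stood at 568.2, 469.9 and 574.4 FPKM. The highest Rictor -/- library was thus well below the lowest control. Its log2 difference was -0.97 ± 0.12 (SE; limma adjusted p = 0.00406), and the ratio of group means was 0.509. Krt72 (ENSMUSG00000056605, chromosome 15, 101776172 to 101786460), of the sheath cuticle, had 26.9, 22 and 23.1 FPKM in Rictor -/- epidermis, against 67.2, 50 and 57.6 FPKM in control epidermis. It was the least abundant sheath keratin of the 6 and showed the largest drop among the 9 on the log2 scale, -1.24 ± 0.12 (limma adjusted p = 0.0025). Krt73 (ENSMUSG00000063661, chromosome 15, 101793308 to 101802346), its neighbour and the other type II cuticle keratin, read 140.4, 132.5 and 121.4 FPKM in Rictor -/- libraries and 228.5, 183.4 and 217.6 FPKM in controls. Here the groups also stayed apart, but the drop was the smallest of the 9, at -0.67 ± 0.10 (limma adjusted p = 0.00743).

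The type I sheath keratins are neighbours on chromosome 11. Krt25 (ENSMUSG00000035831, 99315516 to 99322951) had 293.7, 263.2 and 254.5 FPKM in the Rictor -/- libraries, against 522.1, 395.8 and 514.4 FPKM in the controls, a log2 difference of -0.81 ± 0.13 (limma adjusted p = 0.00746). It was the most abundant type I keratin of the sheath in every library. Krt27 (ENSMUSG00000017588, 99345565 to 99351104) stood at 161.8, 147.1 and 143 FPKM in Rictor -/- epidermis and at 296.8, 235.3 and 299.95 FPKM in control epidermis, with a difference of -0.87 ± 0.11 (limma adjusted p = 0.0046). Krt28 (ENSMUSG00000055937, 99364872 to 99374903) read 119.3, 103.9 and 113.3 FPKM in Rictor -/- libraries, against 211.6, 172.3 and 212.8 FPKM in controls, and differed by -0.82 ± 0.10 (limma adjusted p = 0.00447). For both genes the lowest control lay above the highest Rictor -/- library. The 3 type I members differed by nearly the same amount, within the SE of each other.

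The shaft keratins were lower as well. Krt35 (ENSMUSG00000048013, chromosome 11, 100092193 to 100096241), the early shaft keratin, stood at 102.3, 88.6 and 93.9 FPKM in Rictor -/- libraries 263, 265 and 266, against 202 (control 261), 158.9 (control 262) and 197.8 FPKM (control 264), a log2 difference of -0.96 ± 0.11 (limma adjusted p = 0.00335). It was by far the most abundant of the 3 in every library. Krt33a (ENSMUSG00000035592, chromosome 11, 100011195 to 100016212), of the cortex, read 18.8, 15.4 and 16.5 FPKM in Rictor -/- epidermis and 41.6, 28.2 and 32.1 FPKM in control epidermis, and differed by -0.95 ± 0.15 (limma adjusted p = 0.00728). Krt33b (ENSMUSG00000057723, chromosome 11, 100023634 to 100029868), its neighbour, had 10.7, 9.85 and 9.99 FPKM in Rictor -/- epidermis, against 30.2, 20.8 and 23.3 FPKM in control epidermis, and differed by -1.19 ± 0.13 (limma adjusted p = 0.00312). For Krt33b the SD was 0.459 FPKM between Rictor -/- libraries and 4.87 FPKM between controls. Of all 50-base words in the annotated transcripts of Krt33b and Krt33a, 24.2% and 17.8% also occur in transcripts of other genes, mostly Krt34, so reads of these paralogs can be split between them and their single values are less certain. For Krt25 and Krt27 the shares were 10.9% and 11.1%, mostly with each other, and for the other 5 keratins at most 2.7%.

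Because FPKM is scaled by transcript length, levels can be set in order. In controls Krt71 (mean 537.5 FPKM) and Krt25 (477.4) came first, then Krt27 (277.4), Krt73 (209.8), Krt28 (198.9) and Krt35 (186.2), and last Krt72 (58.3), Krt33a (34) and Krt33b (24.7). Across control libraries the ranges of Krt71 and Krt25 overlapped, as did those of Krt73 and Krt28, of Krt28 and Krt35, and of Krt33a and Krt33b. Both genes of a pair share the spread between libraries, however, and within each control library the first of each pair was the higher. In Rictor -/- epidermis the order of means was the same, and Krt71 (273.7 ± 32.9 FPKM) was above Krt25 (270.5 ± 20.6 FPKM; SD, n = 3) in library 263 but below it in 265 and 266.

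Ratios within a library compare the keratins with each other. Krt72 was 0.192, 0.166 and 0.191 of Krt73 in Rictor -/- libraries, against 0.294, 0.272 and 0.265 in controls. Krt33b was 0.57, 0.64 and 0.604 of Krt33a in Rictor -/- libraries, against 0.726, 0.737 and 0.726 in controls. In both pairs every Rictor -/- ratio lay below every control ratio. The ratio of Krt72 to Krt71 was 0.0879 ± 0.00484 in Rictor -/- and 0.108 ± 0.00915 in control epidermis, and that of Krt71 to Krt25 was 1.01 ± 0.0434 in Rictor -/- and 1.13 ± 0.0511 in control epidermis (SD, n = 3 each). For each of these 4 ratios, chosen after the values were seen, the two-sided exact permutation test over libraries gave p = 0.1, raw and adjusted, which is the smallest that 3 against 3 libraries allow and does not pass 0.05. Within the sheath, summed type I (Krt25, Krt27 and Krt28) over summed type II keratin (Krt71, Krt72 and Krt73) was 1.2, 1.23 and 1.3 in Rictor -/- libraries and 1.19, 1.14 and 1.21 in controls, so these groups overlapped. The 3 shaft keratins came to 12.5%, 12.2% and 13.3% of the sheath sum in Rictor -/- epidermis, against 14.4%, 13.8% and 13.5% in control epidermis, ranges that were separate but close.

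**Figure D2:**
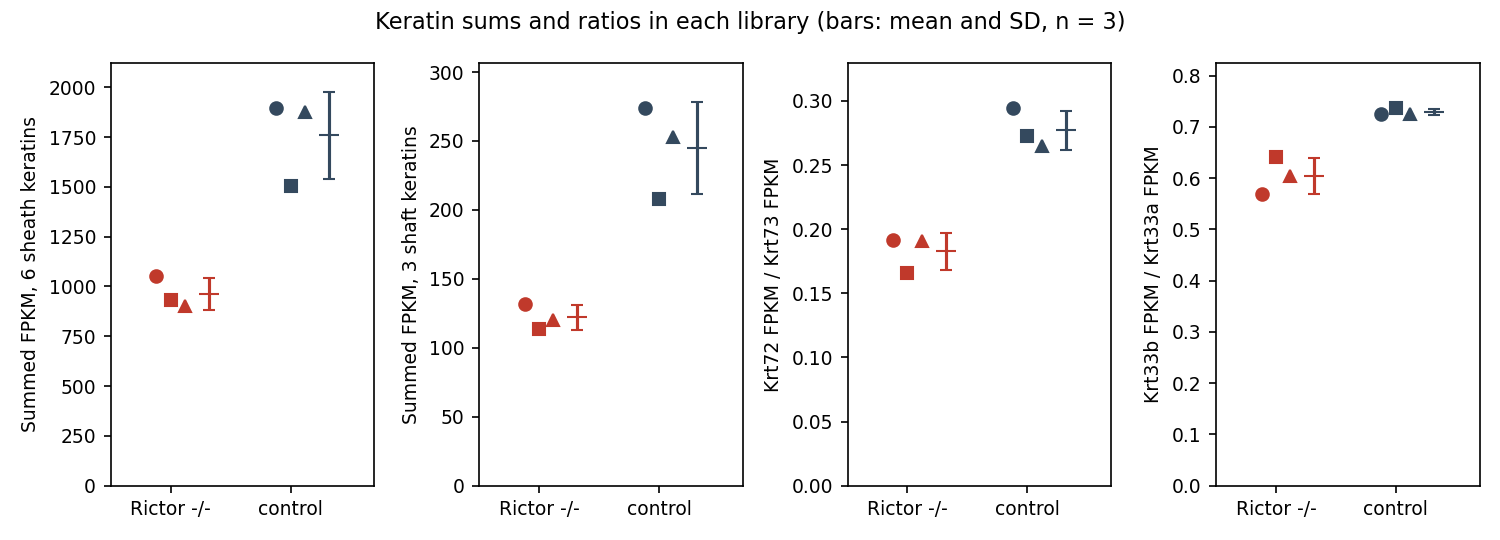
Summed FPKM of the 6 sheath and of the 3 shaft keratins, and the ratios Krt72 to Krt73 and Krt33b to Krt33a, in each library, Rictor -/- left of control; bars give mean and SD (n = 3). The sheath sum averaged 962.3 FPKM in Rictor -/- and 1759 FPKM in control libraries, and both ratios were lower in every Rictor -/- library.

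The keratins also varied together inside the groups. Control 262 was the lowest control and 263 the highest Rictor -/- library for 9 of 9 keratins. Both held for 9 of 14 other hair keratins and for 19.1% of all tested genes. Control 262 alone was lowest in 42.5% of tested genes and 263 alone highest among the Rictor -/- libraries in 38.2%, so part of this order is shared by the whole table.

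Most other hair keratins were lower too. Krt26, the remaining type I keratin of the sheath, had 20.2, 18.5 and 17.9 FPKM in Rictor -/- libraries, against 34.8, 27.3 and 27.1 FPKM in controls (-0.62 ± 0.11, limma adjusted p = 0.0103). Of 12 other shaft keratins 11 were tested, with a median log2 difference of -0.92. Of the 11, 10 fell and 0 rose, against 15.6% lower and 7.91% higher over all tested genes. Krt39, 1 of the 10, reached the filter of 1 FPKM only in the controls (mean 1.52 FPKM, against 0.707 FPKM in Rictor -/- libraries). With no filter 9 of 12 were called lower, against 5.58% over all genes, and 1 was called higher. The 10 included the type I keratins Krt34 (-1.13 ± 0.16), Krt31 (-1.09 ± 0.13), Krt32 (-0.92 ± 0.08), Krt36 (-0.85 ± 0.14), Krt40 (-0.80 ± 0.14) and Krt39 (-0.55 ± 0.15). The type II keratins Krt83 (-1.11 ± 0.18), Krt86 (-1.10 ± 0.18), Krt82 (-1.003 ± 0.15) and Krt87 (-0.79 ± 0.10) fell with them. Krt81 was the one tested shaft keratin whose groups overlapped, at 13.9, 11.3 and 7.2 FPKM in Rictor -/- and 24.4, 13.2 and 14.9 FPKM in control libraries (-0.65 ± 0.28, limma adjusted p = 0.141). Krt81 and Krt86 share 37.7% and 43.3% of their 50-base words with other genes. For Krt87, Krt34, Krt31 and Krt83 the shares were 36.9%, 33.1%, 28.1% and 22.1%, and for Krt32, Krt36 and Krt82 at most 0.432%. Single values of keratins with large shares are less certain. The call of Krt39 was lost without any single library except control 262 (limma adjusted p = 0.0557 to 0.118). It was also lost with a pseudocount of 5, with no filter and with the length trend removed (limma adjusted p = 0.051, 0.0782 and 0.138). After trimmed mean and quantile scaling it was lost as well (limma adjusted p = 0.0525 and 0.0927).

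Krt84, a shaft and tongue keratin, was the exception in direction. It stood at 0.798, 0.982 and 1.09 FPKM in Rictor -/- libraries, against 0.322, 0.17 and 0.223 FPKM in controls, too low to enter the test. Its Rictor -/- values were all above its control values, as in 16.6% of tested genes. Without a filter on low values it was called higher (0.66 ± 0.08, limma adjusted p = 0.014). Of the keratins around the sheath, Krt75, of the companion layer next to it, fell to 57.3, 47.8 and 51.3 FPKM in Rictor -/- libraries, against 73.5, 63.8 and 70.5 FPKM in controls (-0.40 ± 0.09, limma adjusted p = 0.0222). This call was lost without 265, 266 or control 261 (limma adjusted p = 0.0719, 0.0783 and 0.0726). Krt79, of the infundibulum and sebaceous duct, differed by -0.20 ± 0.07 and did not pass (limma adjusted p = 0.0919), but did without control 264 (adjusted p = 0.0418).

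**Figure D3:**
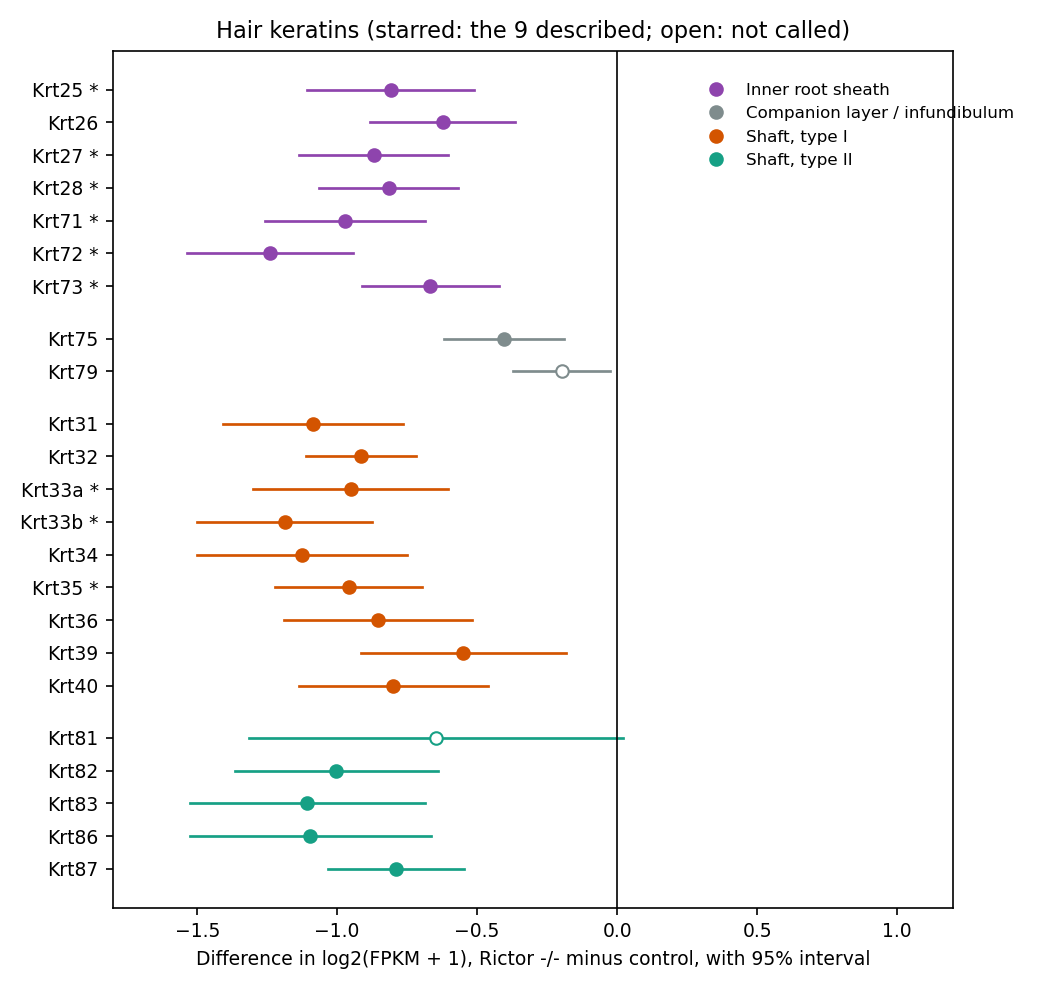
Differences in log2(FPKM + 1), Rictor -/- minus control, with 95% intervals from limma, for tested hair keratins grouped by place and type; stars mark the 9 keratins described first and open circles those not called. Sheath and shaft keratins lie between -1.24 and -0.55.

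Mouse keratin genes sit in a type I cluster on chromosome 11 and a type II cluster on chromosome 15, where hair and epidermal keratins alternate in blocks. Of 40 keratin genes tested, 23 fell and 7 rose. Counted by class, 7 of 7 sheath and 13 of 14 shaft keratins fell and 0 rose, while of 19 other keratins 3 fell (Krt15, Krt23 and Krt75) and 7 rose, against 15.6% lower and 7.91% higher over all tested genes. The 7 were Krt5 and Krt14, of the basal layer, Krt6a, Krt6b, Krt16 and Krt17, which epidermis makes under stress and follicles make as well, and Krt18, of simple epithelia. Without 263 the calls of Krt5, Krt17 and Krt18 were lost (limma adjusted p = 0.054, 0.0743 and 0.135). With no filter on low values they were lost too (limma adjusted p = 0.208, 0.0856 and 0.0991). The call of Krt17 was also lost without 266, control 261 or control 262. That of Krt18 was lost without any single library except control 261 (limma adjusted p = 0.0587 to 0.135 over both genes). For these other keratins the share that fell is near the background. Among the shaft keratins, Krt39 passed the filter on low values only through the controls, and Krt84 was too low to be tested. On chromosome 11 the block from Krt39 to Krt36 held 9 tested keratin genes, all called lower; keratin-associated protein genes also lie there and are described below. On chromosome 15 Krt71, Krt72 and Krt73 are directly preceded by Krt5, Krt6a and Krt6b, all called higher, and followed by Krt2 and Krt1. Of 9 tested keratins listed as epidermal 2 fell and 2 rose (median 0.09). Krt5, next to Krt71, averaged 5212 FPKM in Rictor -/- and 3515 FPKM in control epidermis (0.57 ± 0.10, limma adjusted p = 0.00972). Krt1, which differentiating epidermal cells make, averaged 10110 FPKM in Rictor -/- and 10078 FPKM in control epidermis. The direction thus changed at the border between neighbouring genes of a cluster.

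**Figure D4:**
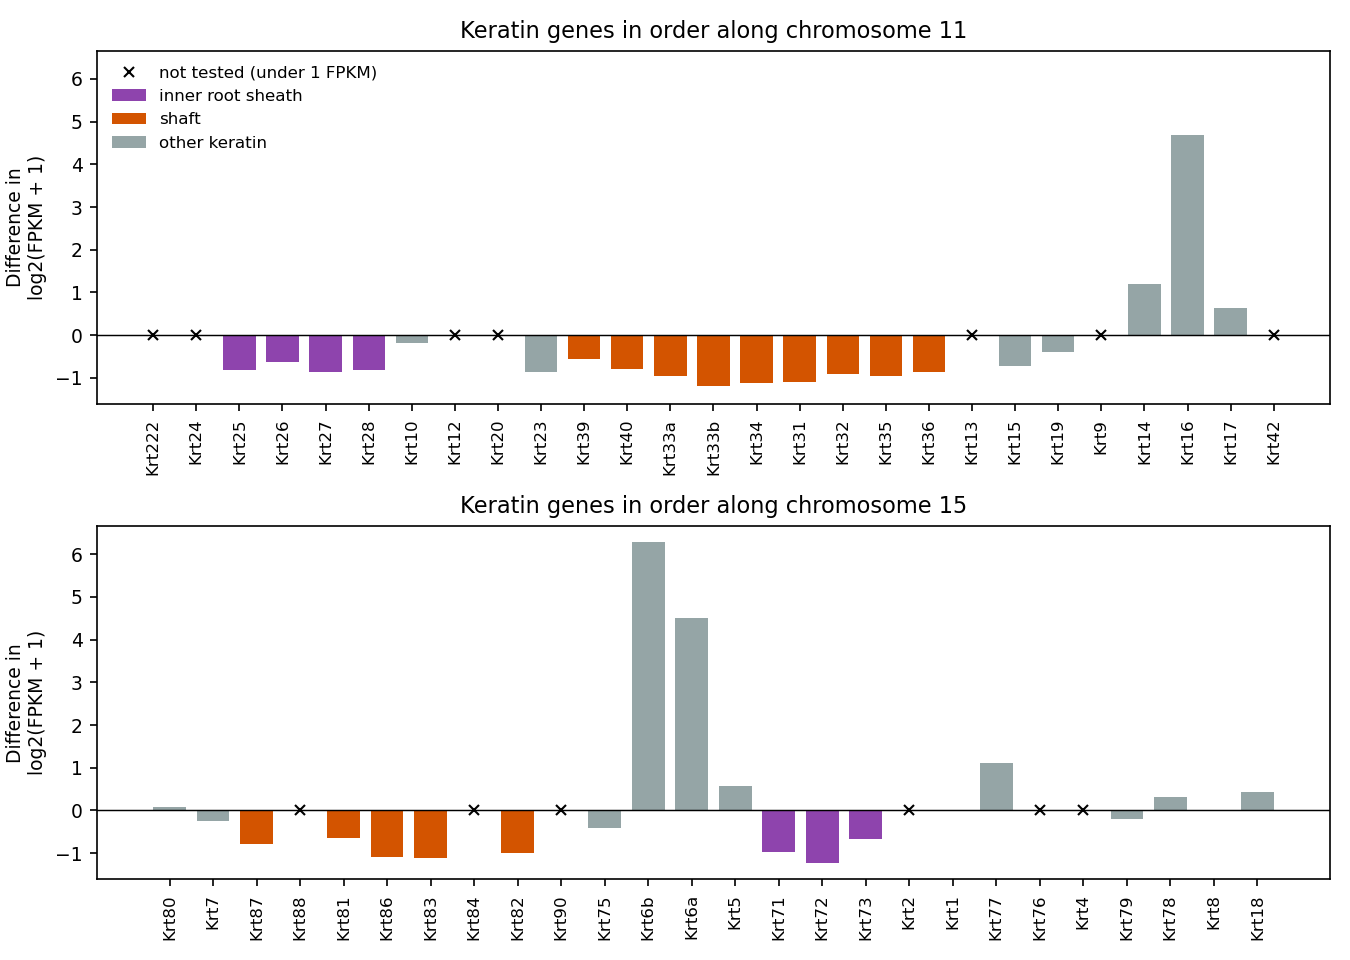
Differences in log2(FPKM + 1), Rictor -/- minus control, of keratin genes in their order along chromosomes 11 and 15, coloured by class; crosses mark genes under 1 FPKM in both groups, which were not tested. Sheath (purple) and shaft (orange) bars all point down, and upward bars belong to other keratins, the highest being Krt6b at 6.29.

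Most genes listed for structural and processing proteins of hair, and for keratin-associated proteins, had lower mRNA. Of 11 structural and processing genes 9 fell and 1 rose, against 15.6% lower and 7.91% higher over all tested genes. The median log2 difference of the 11 was -0.79. S100a3, a calcium-binding protein of the hair cuticle, averaged 155.4 ± 18.4 FPKM in Rictor -/- and 310.9 ± 53.1 FPKM in control epidermis (SD, n = 3 each; -0.99 ± 0.15, limma adjusted p = 0.00672). Gprc5d (-0.92 ± 0.14), an orphan receptor of hard keratinized tissue, Padi3 (-0.79 ± 0.10), which deiminates trichohyalin, and Tgm3 (-1.23 ± 0.12), a transglutaminase that cross-links it, fell. So did Dsg4 (-0.55 ± 0.10), the desmoglein of the hair cortex, Crym (-0.87 ± 0.13), a thyroid hormone-binding protein, and the selenium-binding protein Selenbp1 (-1.48 ± 0.20). Lipase Liph (-0.41 ± 0.12) and Lpar6 (-0.29 ± 0.07), the receptor for its lipid product, also fell, but each call was lost without any single library except control 264. Tchh, trichohyalin itself, stood at 88.4, 80.7 and 77.8 FPKM in Rictor -/- libraries, against 140.2, 121 and 82.8 FPKM in controls (-0.44 ± 0.18, limma adjusted p = 0.128). Control 264 was close to the Rictor -/- libraries here, and without it Tchh was called (limma adjusted p = 0.00799). The member that rose, Tchhl1 (0.48 ± 0.13), lost its call without 263 or 266 or any one control (limma adjusted p = 0.0537 to 0.117). Among keratin-associated proteins 35 of 43 tested genes fell and 0 rose (median -1.04), against 15.6% lower and 7.91% higher over all tested genes. Krtap16-3, Krtap19-5 and Krtap4-13, called lower, and Krtap19-3 and Krtap29-1, not called, reached the filter of 1 FPKM only in the controls. With the filter set on the mean over all 6 libraries 33 of 39 were lower, against 15.5% over all tested genes. Under other settings 26 to 42 were lower.

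Of 15 regulators of hair differentiation 5 fell and 0 rose, against 15.6% lower over all tested genes, and the median was -0.13. They were Hoxc13 (-0.53 ± 0.11) and Foxq1 (-0.40 ± 0.09), transcription factors of the shaft, Msx2 (-0.52 ± 0.12) and Dlx3 (-0.29 ± 0.08), homeodomain factors of the matrix, and Gata3 (-0.34 ± 0.08), a factor of the inner root sheath. Foxn1, which switches on hair keratin genes, had 10.9, 9.99 and 9.75 FPKM in Rictor -/- libraries and 12.2, 9.9 and 10.2 FPKM in controls, values that overlapped (-0.06 ± 0.09, limma adjusted p = 0.639). The count depended on single libraries and on the processing: without 265, 266 or control 261 the count was 0, without 263 it was 2, without control 262 it was 3, after trimmed mean or quantile scaling 2, with the length trend removed 3, and with no filter on low values 1.

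Marker lists of the outer root sheath and bulge and of placode and matrix had medians near that of all tested genes, -0.06. Of 6 outer root sheath and bulge markers 1 fell, Krt15 (-0.72 ± 0.14), a keratin also made by basal epidermis, and the median was -0.05. That call was lost without 263 (limma adjusted p = 0.0567). A count of 1 in either list is near the 15.6% of all tested genes called lower. Sox9, of the outer root sheath, read 32.2, 27.7 and 28.1 FPKM in Rictor -/- and 30.5, 28.5 and 27.7 FPKM in control libraries. Lgr5, of follicle stem cells, read 8.4, 8.26 and 8.99 FPKM in Rictor -/- and 9.06, 8.79 and 8.34 FPKM in control libraries. Both overlapped between groups (limma adjusted p = 0.878 and 0.786). Of 5 placode and matrix markers 1 fell, Msx2, with a median of -0.13, and Shh, the signal made by placode and matrix cells, had 13.9, 13.5 and 13.5 FPKM in Rictor -/- libraries, against 12.4, 13.1 and 14.3 FPKM in controls (0.04 ± 0.07, limma adjusted p = 0.712). A difference between these markers and the keratins was not tested.

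Marker mRNA of cell types other than keratinocytes stood at differing levels, which does not give numbers of cells. Melanocyte markers, which in skin with follicles come largely from pigment cells of the hair bulb, summed to 308.1, 272.3 and 278.1 FPKM in Rictor -/- and 410.4, 364.3 and 447.5 FPKM in control libraries. Of 6 such markers 4 fell, Dct (-0.56 ± 0.11), Mlana (-0.57 ± 0.08), Tyr (-0.52 ± 0.12) and Pmel (-0.49 ± 0.10), against 15.6% lower over all tested genes. Of the 4, all but Mlana lost their call without 265 or without 266, and Tyr and Pmel also without control 261 (limma adjusted p = 0.0503 to 0.0846). Tyrp1 (-0.29 ± 0.15) and Mitf (-0.20 ± 0.14) did not pass (limma adjusted p = 0.217 and 0.336). Of 4 tested fibroblast markers 2 rose, Col1a1 (0.87 ± 0.20) and Col1a2 (0.56 ± 0.12), against 7.91% higher over all tested genes. Both lost their call without control 261 (limma adjusted p = 0.0758 and 0.0588), Col1a1 also without control 262 (0.0574) and Col1a2 without 265 (0.0549). Col3a1 (0.86 ± 0.28) and Dcn (0.07 ± 0.14) did not pass (limma adjusted p = 0.0708 and 0.731). Dcn, the most abundant of the list, averaged 111.2 FPKM in Rictor -/- and 105.4 FPKM in control epidermis. The 6 fibroblast markers listed summed to 124.1 to 158.7 FPKM in Rictor -/- and 113.9 to 141.8 FPKM in control libraries. Dermal papilla markers (Corin, Crabp1, Sox2, Alpl and Rspo3) summed to at most 1.35 FPKM in every library, endothelial markers to at most 0.634 FPKM and 3 muscle markers to 1.62 to 5.21 FPKM. The part of melanocytes and fibroblasts in the keratin result was not tested.

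**Figure D5:**
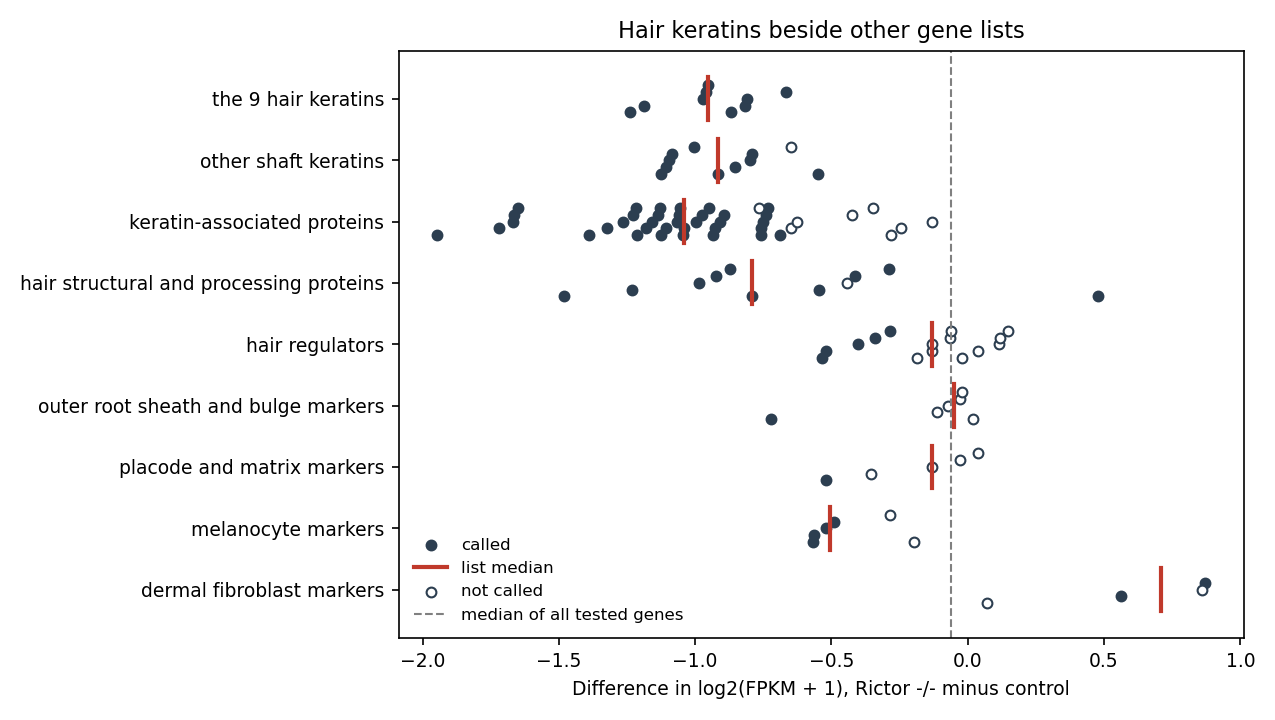
Differences in log2(FPKM + 1), Rictor -/- minus control, for each tested gene of the lists; filled circles passed limma's test, open ones did not, red bars are list medians and the dashed line is the median of all tested genes (-0.06). The 9 hair keratins, other shaft keratins and keratin-associated proteins have medians of -0.95, -0.92 and -1.04, and outer root sheath and bulge markers -0.05.

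Genes with the most similar course over the 6 libraries were sought among 11723 tested protein-coding genes, by the root mean square difference of log2(FPKM + 1) values centred on each gene's mean. Closest to the mean course of the sheath keratins were Crat (0.051), a carnitine acetyltransferase, Crym (0.0511), Fbp1 (0.0651), a gluconeogenic phosphatase, Cpne5 (0.0686), a calcium-dependent phospholipid-binding protein, and Padi3 (0.0726), against a median of 0.452 over all candidates. Crat, for example, stood at 8.35, 8.1 and 7.72 FPKM in Rictor -/- libraries, against 16.8, 12.9 and 16.4 FPKM in controls. By the same measure the sheath keratins themselves lay at 0.0268 (Krt27) to 0.182 (Krt72), with Krt73 at 0.12. The 5 genes were picked for their small distances, so they cannot be ranked against the keratins. The measure also grows with the size of a change, and Krt72 and Krt73 had the largest and the smallest drop of the sheath keratins. Closest to the shaft keratins were Krtap1-3 (0.0487), Krtap13-1 (0.0491), Krt31 (0.055), Krtap9-1 (0.0662) and Krt82 (0.0775), all shaft genes, against a median of 0.523 over all candidates. The search used the same libraries as the comparison, so these distances describe the 6 libraries only.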

How the data were processed

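Total RNA of separated mouse epidermis at E19.5 was measured in 6 libraries, 3 Rictor -/- and 3 control, grouped by the genotype and title labels. The authors deposited FPKM per gene, made with CASAVA and Cufflinks on GRCm38, per the submitters' processing notes; versions, aligner, annotation and strandedness are not stated there. The table held 49452 rows, of which 49109 identifiers matched GENCODE M21; the highest-mean row was kept per symbol, leaving out 66. The keratins and gene lists were chosen with earlier results of these data known. The remaining shaft keratin of the list is not reported here.

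Values were analysed as log2(FPKM + 1), which understates changes of low genes. A gene was tested where its mean reached 1 FPKM in one group or both (13500 genes). limma was fitted with an intensity trend, 3 libraries per group and no covariates; two-sided p-values were Benjamini-Hochberg adjusted over the 13500 genes, and 0.05 was the limit for a call. FPKM are not counts, so no count model was used and no counting error is given. Every tested member of a list that passed the threshold is named, apart from keratin-associated proteins and epidermal keratins; members that did not pass, Foxn1, Sox9, Lgr5, Shh, Tchh and Krt81 among them, were chosen after their values were seen. Nearest genes leave out Gm and Rik names. The test was checked on simulated data. Alternatives were other pseudocounts, filters, scalings and variance models, removal of a length trend in each library, and each library left out in turn. R 4.3.3, limma 3.58.1, Python 3.11.15, pandas 2.3.3 and matplotlib 3.10.9 were used.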

Additional observations from a re-analysis of the deposited data

How the results depend on the processing

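All 9 keratins stayed lower and past limma's threshold under each of 17 alternatives, 153 values in all, with adjusted p from 0.000232 to 0.0332; the count was 9 lower and 0 higher in each. The smallest differences came mostly after a length trend was removed from each library, for example -0.52 for Krt73 and -1.09 for Krt72. The count of called genes over the whole table was 3169, 6272 with array weights, 2231 without a filter, and 1462 to 3784 with 1 library left out. The share called lower was 5.58% to 29.2% under these settings. Higher genes made up 33.7% of calls as deposited, 44.5% after median, 50.1% after trimmed mean and 47.9% after quantile scaling and 51.3% with the length trend removed; no scaling moved the median of all genes by over 0.1. Foxn1, Sox9, Lgr5, Shh and Krt1, none called, changed sign around 0: Foxn1 with trimmed mean scaling (0.0025), with the length trend removed (0.0294) and within -0.1155 to 0.0216 with 1 library left out; Sox9 with array weights (-0.0433) and within -0.0474 to 0.058 with 1 left out; Lgr5 with median, trimmed mean and quantile scaling (0.0124, 0.038 and 0.029); Shh within -0.007 to 0.0881 with 1 left out; Krt1 with quantile scaling (-0.0726) and within -0.0314 to 0.026 with 1 left out. The cause was not tested. Among the named genes outside the 9 keratins, calls were lost in 105 of 949 values and gained in 6. No paired analysis was possible because the labels name no pairs of libraries across the groups. FPKM gives no read counts, so the depth behind low values such as Krt84 is limited and unknown.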
